A study of Homo sapiens with 6 samples.

Results

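The ubiquitin ligases and the enzymes that load them were followed in Huh7, a cell line established from a human hepatocellular carcinoma, after depletion of the tyrosine kinase gene ABL1. Members were all rows whose gene symbol begins with one of the family names of ubiquitin-conjugating enzymes (UBE2), HECT ligases (UBE3, HECT, HERC, SMURF), N-recognin ligases (UBR), RING ligases (RNF, MARCH, SIAH, DTX), TRIM proteins, cullins (CUL) and the cullin adaptor and receptor families (FBXL, FBXO, FBXW, KLHL, KCTD, BTBD, DCAF, SOCS, ASB). RNF157, HERC5, DTX1 and UBE2C, which the rule sets aside, were left out. This gave 245 rows of 237 gene symbols, out of 10191 rows of 9717 symbols in all. Each row is a single RefSeq transcript.

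The study compared 3 libraries from cells carrying a short hairpin RNA against ABL1 (knockdown) with 3 from cells carrying a scrambled hairpin (scrambled), all grown in DMEM and collected 1 week after puromycin selection. Both groups therefore carry a hairpin and went through selection. The labels give neither the number of hairpins against ABL1 nor whether the libraries came from separate cultures. P-values here therefore reflect library-to-library spread, which may be purely technical. Recovered reads per library ran from 6651413 to 7952645 in knockdown cells and from 7713451 to 10487862 in scrambled cells.

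ABL1 itself has 2 transcripts in the table, and they moved in opposite directions. NM_007313 had 13.7, 10.2 and 9.28 normalized counts in the knockdown libraries, against 73.4, 71.7 and 71.3 in the scrambled libraries (log2 change -2.62, SE 0.26, adjusted p = 4.11e-06). NM_005157 had 17.6, 19.2 and 24.8 in the knockdown libraries, against 9.17, 6.72 and 10.3 in the scrambled libraries (log2 change 1.15, SE 0.36, adjusted p = 0.0180). The first of these was lower in every knockdown library and the second higher, and both have few reads; the adjusted p of the second was 0.0738 without knockdown 3 and 0.0508 without scrambled 2.

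Ubiquitin is passed along a relay of an activating enzyme (E1), a conjugating enzyme (E2) and a ligase (E3), and the ligase picks the protein to be marked. HECT ligases carry ubiquitin on their own cysteine before handing it on. Most RING ligases, the TRIM family among them, instead hold a loaded E2 next to the target. Cullins are scaffolds that join a RING subunit to interchangeable receptors: F-box proteins on CUL1, BTB proteins such as the KLHL family on CUL3, DCAF proteins on CUL4 and SOCS box proteins on CUL2 or CUL5. Chains of ubiquitin send proteins to the proteasome or change their activity, and the similar modifiers NEDD8, SUMO and ISG15 have E2 enzymes of the same family.

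Member transcripts changed in both directions and about as often as the rest of the transcriptome. Of the 245 rows, 208 had a mean normalized count of at least 10 and were tested, and 57 of these rose, 51 fell and 100 were not called (limma, Benjamini-Hochberg adjusted p under 0.05 over all 8600 transcripts tested). A call in either direction was made for 51.9% of tested members and for 51.9% of all transcripts tested. Rises made up 27.4% of tested members against 24.5% of all transcripts, and falls 24.5% of members against 27.4% of all transcripts. The groups did not overlap for 119 members (57.2%), against 58.9% of all transcripts. Changes of at least 2-fold were made up of 12 rises (5.77% of members, against 7.92% of all transcripts) and 13 falls (6.25% of members, against 9.02% of all transcripts). The median log2 change, knockdown minus scrambled, was 0.042 for members and 0.0018 for all transcripts.

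The direction of small changes depends on how the libraries are scaled. The values above keep the scale factors of the deposited table. With every library scaled to the same total, the median of all transcripts moved to 0.18 and that of members to 0.22, and the calls became 81 higher and 38 lower members (68.1% higher, against 52.8% with the deposited scaling) and 2982 higher and 1690 lower transcripts in all (63.8% higher, against 47.2%). All 57 rises and 38 of the 51 falls were still called with equal totals. Leaving out each library in turn kept 35 of the 57 rises and 43 of the 51 falls in all 6 refits, where a transcript that fell below the minimum in a refit counts as not kept. In RNA from a whole culture, fewer cells expressing a gene and less RNA per cell cannot be told apart.

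**Figure D1:**
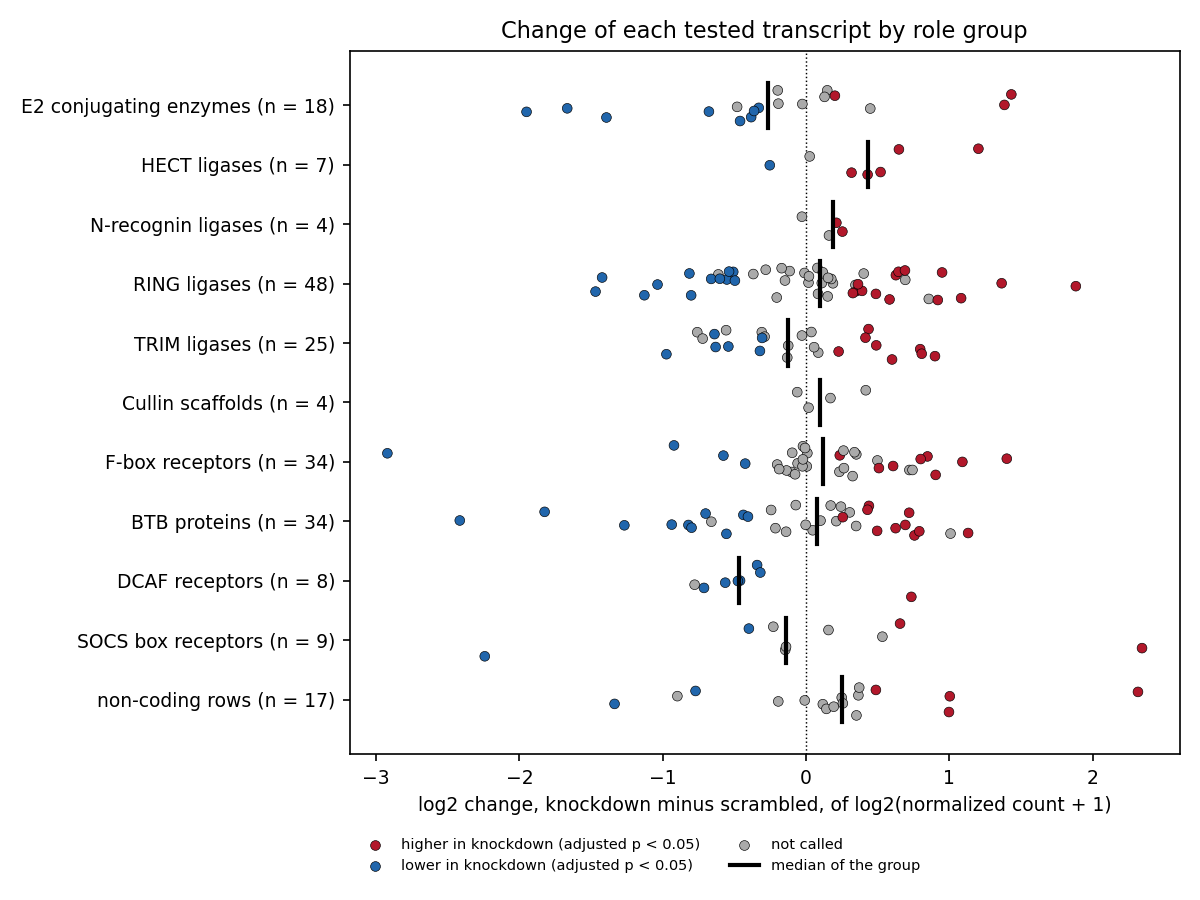
Log2 change (knockdown minus scrambled, horizontal axis) of each tested member transcript, one point each, by role group (vertical axis), coloured by call, with the group median as a bar. Most points lie within 1 log2 unit of 0, and the far ends are FBXL16 at -2.92 and ASB4 at 2.35.

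**Figure D2:**
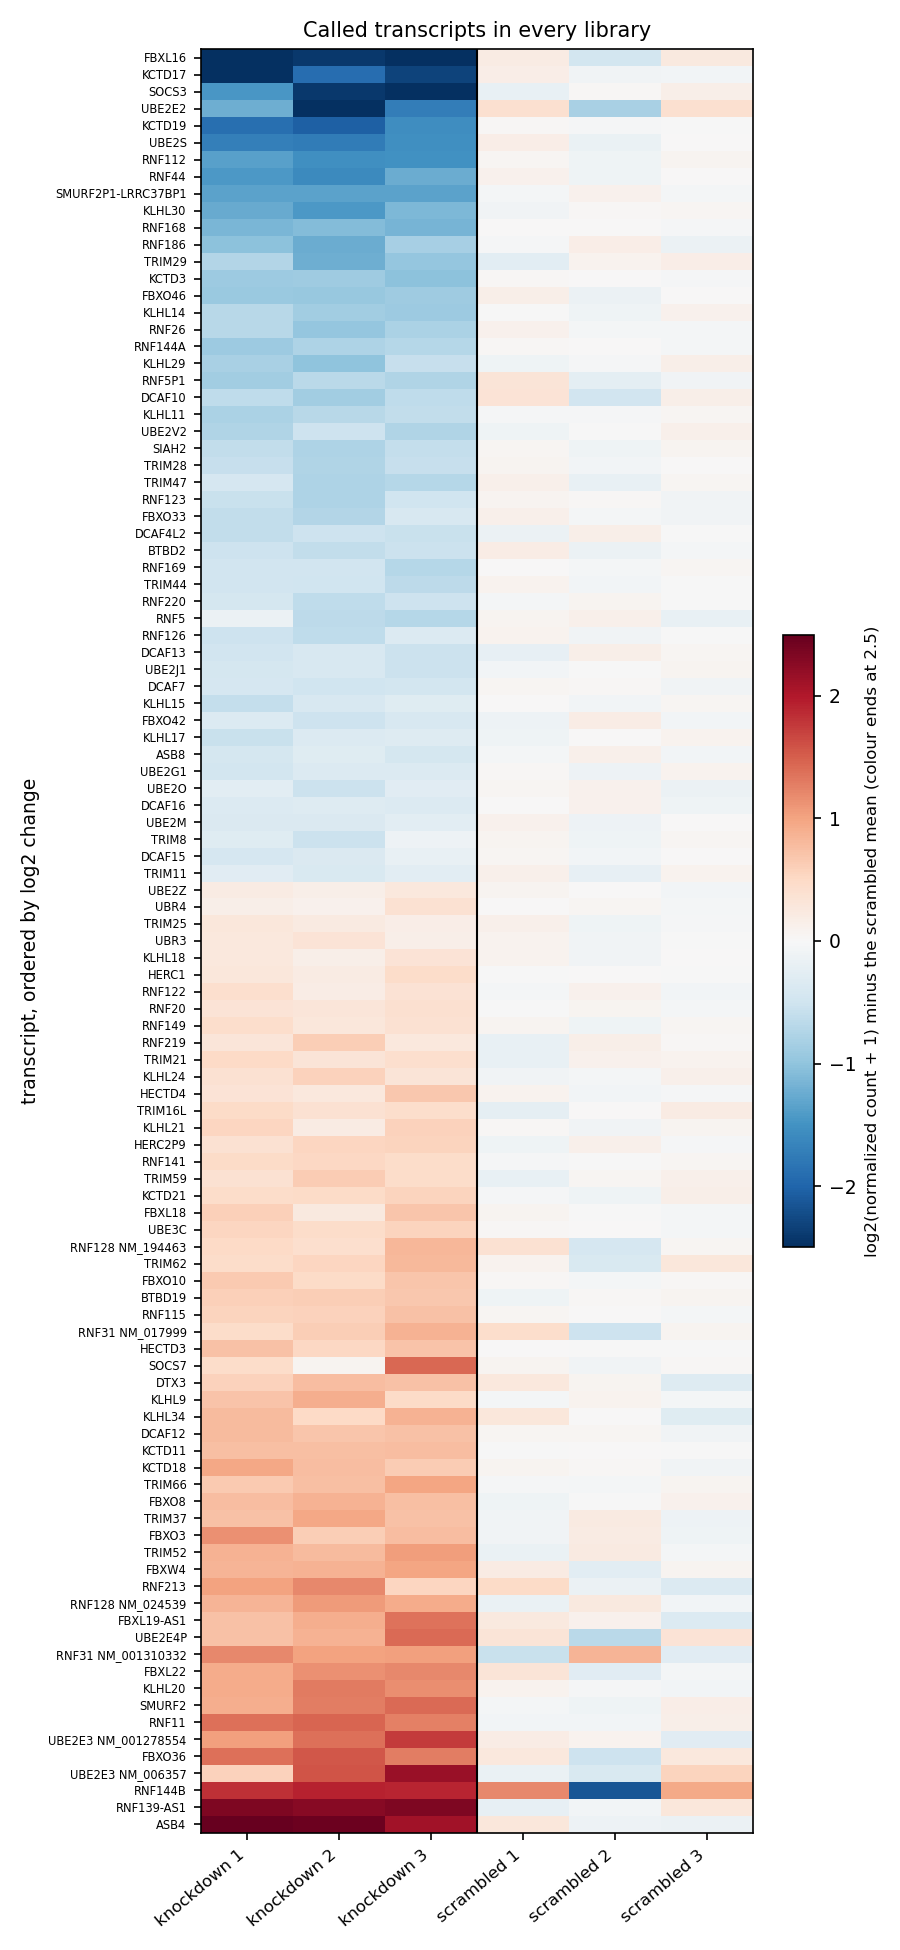
Log2(normalized count + 1) minus the mean of the scrambled libraries for the called member transcripts, except the few not reported here (rows, ordered by log2 change), in each library (columns). The 3 knockdown columns carry one colour within nearly all rows; SOCS7 and RNF5 are the 2 called rows whose groups overlap.

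Among role groups, HECT ligases were mostly higher and DCAF receptors mostly lower in knockdown cells, with 5 called higher and 1 lower of 7 tested HECT transcripts, and 1 called higher and 6 lower of 8 tested DCAF transcripts. With equal totals these counts were 5 higher and 0 lower for HECT ligases, and 1 higher and 4 lower for DCAF receptors. The HECT group holds only the UBE3, HECT, HERC and SMURF symbols. Of 5 tested HECT ligases with other symbols, 2 were higher and 2 lower (2 and 1 with equal totals). E2 enzymes had 3 higher and 8 lower of 18, which turned to 6 higher and 5 lower with equal totals. No cullin of 4 was called. These groups are small, and their counts are descriptions beside the 24.5% and 27.4% of all transcripts called higher and lower.

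Promoters are printed for 5 members that changed in all refits and differ in direction and in the motifs they hold, so that their letters can be read beside the values that follow. UBE2S, RNF26 and RNF44 fell, and RNF11 and ASB4 rose. Each sequence runs 5′ to 3′ on the gene's strand from 250 bases before to 50 bases after the gene's first listed start, from RefSeq on GRCh38.p14. They lie at chr19:55407739-55408038 (minus strand), chr11:119334277-119334576 (plus), chr5:176537353-176537652 (minus), chr1:51236023-51236322 (plus) and chr7:95485693-95485992 (plus). Capitals mark matches, on either strand, to CCAAT, to the E-box CACGTG or to the letters TTTGAA of the cell cycle genes homology region (CHR). A match on the opposite strand shows as ATTGG for the first of these and, for the CHR, as the letters TTCAAA.
UBE2S: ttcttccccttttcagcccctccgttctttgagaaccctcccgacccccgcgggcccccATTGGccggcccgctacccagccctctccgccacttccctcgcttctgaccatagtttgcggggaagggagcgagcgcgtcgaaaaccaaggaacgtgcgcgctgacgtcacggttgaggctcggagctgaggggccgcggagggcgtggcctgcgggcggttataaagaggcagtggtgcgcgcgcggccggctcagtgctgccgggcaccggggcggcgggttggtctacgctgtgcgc
RNF26: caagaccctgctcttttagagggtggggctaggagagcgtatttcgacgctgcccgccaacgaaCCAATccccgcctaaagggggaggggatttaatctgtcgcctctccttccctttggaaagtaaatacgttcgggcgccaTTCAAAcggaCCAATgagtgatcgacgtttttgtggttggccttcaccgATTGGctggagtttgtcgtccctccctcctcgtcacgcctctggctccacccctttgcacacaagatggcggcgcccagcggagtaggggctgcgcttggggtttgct
RNF44: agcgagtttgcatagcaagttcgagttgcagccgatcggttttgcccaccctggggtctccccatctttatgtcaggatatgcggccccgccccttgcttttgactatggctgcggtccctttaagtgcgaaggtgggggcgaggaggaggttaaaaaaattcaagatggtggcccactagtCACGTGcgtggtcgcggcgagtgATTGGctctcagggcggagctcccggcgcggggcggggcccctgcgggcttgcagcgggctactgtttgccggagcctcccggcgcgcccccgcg
RNF11: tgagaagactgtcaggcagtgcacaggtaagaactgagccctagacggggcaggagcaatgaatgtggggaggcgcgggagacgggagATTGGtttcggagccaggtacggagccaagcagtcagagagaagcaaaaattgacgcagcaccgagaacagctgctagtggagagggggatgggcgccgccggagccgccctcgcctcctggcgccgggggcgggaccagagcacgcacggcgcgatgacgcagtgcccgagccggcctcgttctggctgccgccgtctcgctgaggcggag
ASB4: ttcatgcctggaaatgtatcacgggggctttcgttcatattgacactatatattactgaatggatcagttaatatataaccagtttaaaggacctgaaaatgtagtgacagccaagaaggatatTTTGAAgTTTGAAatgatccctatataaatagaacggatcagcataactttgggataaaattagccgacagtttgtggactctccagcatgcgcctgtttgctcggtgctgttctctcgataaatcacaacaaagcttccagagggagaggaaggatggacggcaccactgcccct

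In the UBE2S window a single CCAAT match begins 191 bases before the start. RNF26 holds a CHR match 107 bases before the start and CCAAT matches at 186, 97 and 58 bases. RNF44 holds an E-box at 68 bases and CCAAT at 45, RNF11 a CCAAT match at 162, and ASB4 adjacent CHR matches at 126 and 119. Promoters were listed for 170 of 213 coding member genes. The CHR letters stood in 8 of 34 promoters of genes with a lower row (23.5%) and in 4 of 41 with a higher row (9.76%), against 10.2% of the promoters of all tested genes and 15.4% of all promoters in the reference. The 8 were DCAF16, DCAF7, KLHL15, RNF144A, RNF169, RNF186, RNF26 and RNF5. The number is small and was given no test. Of the 8, RNF5 and DCAF16 were not called with equal totals, and RNF186 was not called in every refit with a library left out. For the genes of all lower transcripts, members or not, 10.6% of promoters held the CHR letters. For the genes of all higher transcripts the share was 10.9%. E-boxes stood in 3 of 34 promoters of lower and 4 of 41 of higher genes, against 10.5% of tested genes, and CCAAT in 10 of 34 and 12 of 41, against 37.1%. The STAT motif TTCNNNGAA, also searched on both strands, stood in 1 of 34 and 0 of 41, against 6.04% of tested genes. The STAT and CHR letters can overlap, since both can end in GAA. A match is only a run of letters in the window.

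Among the E2 enzymes, UBE2S had the smallest adjusted p of any fall among members. UBE2S extends ubiquitin chains begun by the anaphase-promoting complex (APC/C), the ligase that drives exit from mitosis. It had 2283, 2233 and 2594 normalized counts in the knockdown libraries, against 8393, 6710.2 and 7515 in the scrambled libraries (log2 change -1.67, SE 0.091, adjusted p = 3.31e-08). The highest knockdown library was far below the lowest scrambled one. Markers of dividing cells moved with it: MKI67, TOP2A, CDC20 and PLK1 were all lower, with log2 changes of -2.93, -1.51, -1.19 and -1.08. Their summed normalized count ran from 5771 to 6325 in knockdown libraries, against 15232 to 16281 in scrambled libraries; their part in the fall of UBE2S was not tested.

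Other E2 falls were smaller or rested on fewer reads. UBE2V2, a catalytically inactive E2 variant that works with UBE2N, had 758, 892 and 765 normalized counts in the knockdown libraries, against 1189, 1279 and 1394 in the scrambled libraries (log2 change -0.68, adjusted p = 6.16e-05), while UBE2N itself was not called (-0.20, adjusted p = 0.0622). UBE2J1, an E2 anchored in the endoplasmic reticulum membrane, fell by 0.46 on the log2 scale (1309 ± 57.5 normalized counts in knockdown cells, against 1802 ± 88.4 in scrambled cells; SD, n = 3 each). UBE2G1, which builds chains on cullin ligase targets, fell by 0.38, UBE2O, a joint E2 and E3 enzyme, by 0.36, and UBE2M, the E2 of NEDD8, by 0.33. With equal totals none of these last 3 passed, at adjusted p of 0.0513 for UBE2G1, 0.0867 for UBE2O and 0.0950 for UBE2M.

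UBE2E2 and UBE2E3, close relatives with overlapping roles, moved apart. UBE2E2 had 17, 4 and 11 reads in the knockdown libraries, against 64, 20 and 57 in the scrambled libraries (log2 change -1.95, SE 0.46, adjusted p = 0.00352). Both UBE2E3 transcripts rose. NM_001278554 had 49.9, 64.4 and 83.6 normalized counts in the knockdown libraries, against 27.5, 25.8 and 19.7 in the scrambled libraries (log2 change 1.38, SE 0.26, adjusted p = 6.81e-04). NM_006357 varied more between knockdown libraries, at 47.0, 93.8 and 141 in the knockdown libraries, against 27.5, 23.5 and 46.0 in the scrambled libraries (log2 change 1.43). No 50-base stretch of the annotated UBE2E2 transcripts is found in those of UBE2E3, and for each of these 3 transcripts the groups do not overlap.

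UBE2Z, an E2 loaded by the alternative E1 enzyme UBA6, rose slightly, by 0.20 on the log2 scale (2626 ± 101 normalized counts in knockdown cells, against 2283 ± 117 in scrambled cells). Its adjusted p of 0.0327 became 0.0900 without knockdown 1, 0.0989 without knockdown 3, 0.0631 without scrambled 2 and 0.130 without scrambled 3. The broadly acting UBE2D enzymes were not called: UBE2D3 (NM_181892) had 72.4, 65.6 and 85.6 in the knockdown libraries, against 123, 79.6 and 114 in the scrambled libraries (log2 change -0.48, adjusted p = 0.0596), and UBE2D4 changed by -0.19. UBE2D1, UBE2D2 and UBE2T were not analysed here. UBE2R2, a partner of F-box ligases, was at 2250.3 against 2290.2 mean normalized counts in knockdown and scrambled cells, a log2 change of -0.025.

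Of the HECT ligases, SMURF2 rose most. SMURF2 marks SMAD proteins and TGF-beta receptors for degradation. It had 258, 338 and 371 normalized counts in the knockdown libraries, against 133, 128 and 155 in the scrambled libraries (log2 change 1.20, SE 0.15, adjusted p = 2.71e-05), and the groups were clear of each other. SMURF1 was not analysed here. HECTD3 followed with 1643, 1419.6 and 1630.0 in the knockdown libraries, against 1007, 992 and 987 in the scrambled libraries (log2 change 0.65, SE 0.081, adjusted p = 2.77e-05), and its scrambled libraries were nearly equal.

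UBE3C, a ligase that acts at the proteasome, averaged 2394 ± 79.6 normalized counts in knockdown cells, against 1669 ± 44.5 in scrambled cells (SD, n = 3 each; log2 change 0.52). HECTD4 rose by 0.43 on the log2 scale and the giant ligase HERC1 by 0.32. HERC2, which acts in the DNA damage response, was not called, at 373 against 368 mean normalized counts in knockdown and scrambled cells.

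N-recognin ligases bind proteins by destabilizing residues at their ends. UBR4 had 4385, 4268 and 5145 normalized counts in the knockdown libraries, against 3975, 4077 and 3821 in the scrambled libraries (log2 change 0.21, adjusted p = 0.0428), and UBR3 had 1844, 1949.7 and 1705 in the knockdown libraries, against 1629.9, 1447 and 1532 in the scrambled libraries (0.25, adjusted p = 0.0183). Both rises were small, although the groups did not overlap. The adjusted p of UBR4 was 0.0567 without knockdown 1, 0.186 without knockdown 3, 0.0782 without scrambled 1, 0.0526 without scrambled 2 and 0.137 without scrambled 3, and that of UBR3 was 0.0595 without knockdown 1, 0.0642 without knockdown 2, 0.0651 without scrambled 2 and 0.0521 without scrambled 3. UBR1 (0.16) and UBR2 (-0.028), the founding N-recognins, were not called, but UBR1 was called higher with equal totals (adjusted p = 0.0132) and with quantile normalization (adjusted p = 0.0374). The counts were thus 2 higher and 0 lower of 4 tested N-recognin transcripts, and 3 and 0 with equal totals.

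RING ligases were split, with 14 higher and 12 lower of 48 tested transcripts (21 and 11 with equal totals). RNF168, which marks histones beside DNA double-strand breaks, had 646, 674 and 639 normalized counts in the knockdown libraries, against 1445, 1438 and 1399 in the scrambled libraries (log2 change -1.13, SE 0.076, adjusted p = 1.64e-07). Its relative RNF169, which binds the same mark, fell by 0.55 on the log2 scale (217 ± 19.7 normalized counts in knockdown cells, against 318 ± 12.3 in scrambled cells). No 50-base stretch of the RNF168 transcripts is found in RNF169, so the counts of the 2 genes do not share such reads.

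RNF44, a RING protein whose promoter above holds an E-box, had 1158, 1036 and 1328 normalized counts in the knockdown libraries, against 3377, 2896 and 3145 in the scrambled libraries (log2 change -1.42, SE 0.10, adjusted p = 1.70e-07). RNF26, an endoplasmic reticulum ligase that tethers endosomes near the nucleus, had 2054, 1697 and 1904 in the knockdown libraries, against 3536, 3199.9 and 3187 in the scrambled libraries (log2 change -0.81, SE 0.084, adjusted p = 5.53e-06). In both, the highest knockdown library stood well below the lowest scrambled library. RNF112, known as a brain-enriched RING protein, was at 36.2, 31.6 and 32.0 normalized counts in the knockdown libraries, against 96.7, 86.3 and 98.5 in the scrambled libraries (log2 change -1.47, SE 0.19, adjusted p = 4.09e-05).

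Further falls were seen for SIAH2 (-0.66), a ligase of the hypoxia response, RNF123 (-0.60), the catalytic subunit of a complex that acts on a cell cycle inhibitor, RNF220 (-0.54), RNF126 (-0.50), which clears misplaced membrane proteins, and RNF144A (-0.80). RNF186 (-1.04) rests on 11, 8 and 12 reads in the knockdown libraries, against 27, 23 and 22 in the scrambled libraries, and its adjusted p of 0.0187 was 0.0516 without knockdown 2, 0.0507 without scrambled 1 and 0.0634 without scrambled 2. RNF5, an endoplasmic reticulum ligase, fell by 0.51 although its groups overlap (237, 166 and 159.9 in the knockdown libraries, against 274, 287 and 231 in the scrambled libraries). Its adjusted p of 0.0172 was 0.0585 without knockdown 2, 0.0623 without knockdown 3 and 0.0576 without scrambled 2, and 0.0863 with equal totals. RNF223 was too scarce to be tested, at 1, 0 and 1 reads in the knockdown libraries, against 19, 9 and 13 in the scrambled libraries.

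RNF11 had the smallest adjusted p of any rise among members. RNF11 is a small RING protein that binds HECT ligases and takes part in the complex that damps NF-kappaB signalling. It had 2027, 2144 and 1878 normalized counts in the knockdown libraries, against 742, 742 and 864 in the scrambled libraries (log2 change 1.37, SE 0.088, adjusted p = 1.10e-07), so every knockdown library was over 2 times every scrambled one. SMURF2, described above, is among the HECT ligases known to bind it.

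RNF128, a transmembrane ligase first studied in T cells, rose for both of its transcripts. NM_024539 had 40.1, 46.3 and 42.3 normalized counts in the knockdown libraries, against 19.2, 25.8 and 20.6 in the scrambled libraries (log2 change 0.95, adjusted p = 0.00703). The more abundant NM_194463 had 375, 357 and 475 in the knockdown libraries, against 344, 197 and 277 in the scrambled libraries (0.58), with an adjusted p of 0.0588 without knockdown 3 and 0.0558 without scrambled 2. Both rows of RNF31, the catalytic subunit of the complex that makes linear ubiquitin chains, were also called higher. NM_017999 averaged 173 ± 24.6 normalized counts in knockdown cells, against 114 ± 37.0 in scrambled cells (log2 change 0.65) and NM_001310332 33.3 ± 2.53 normalized counts in knockdown cells, against 16.7 ± 9.83 in scrambled cells (1.08). Neither call held in every refit: the adjusted p was 0.0793 without knockdown 3 and 0.0911 without scrambled 2 for the first, and 0.0671 without knockdown 1, 0.0504 without knockdown 2, 0.0942 without scrambled 1 and 0.0859 without scrambled 3 for the second.

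RNF213, a very large ligase linked to moyamoya disease, has 2 tested rows that differ. The abundant NM_001256071 had 1602, 1438 and 1778 normalized counts in the knockdown libraries, against 1679, 1529 and 1538 in the scrambled libraries and was not called (log2 change 0.018, adjusted p = 0.883). The scarce NM_020954 had 65.5, 75.7 and 47.5 in the knockdown libraries, against 45.0, 29.1 and 25.3 in the scrambled libraries (0.92, adjusted p = 0.0124), with an adjusted p of 0.0562 without knockdown 2 and 0.0550 without scrambled 3. The 2 groups overlap for the first row and not for the second.

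Other RING rises were RNF115 (0.63), RNF141 (0.49), RNF149 (0.36) and RNF20 (0.35), the ligase that marks histone H2B along transcribed genes. RNF20 had 1073, 1047 and 1111 normalized counts in the knockdown libraries, against 838, 884 and 811 in the scrambled libraries, with no overlap. RNF144B, with 15, 14 and 15 reads in the knockdown libraries, against 11, 0 and 8 in the scrambled libraries, was called at an adjusted p of 0.0498; one scrambled library had no read of it, so its fitted log2 change of 1.88 depends on the added count of 1. Without scrambled 2 its adjusted p was 0.128. RNF2, a core subunit of the Polycomb ligase, was not called (0.12).

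TRIM proteins had 8 higher and 6 lower of 25 tested transcripts (8 and 4 with equal totals), and their median log2 change of -0.12 was 0.050 with equal totals. TRIM28, a corepressor recruited by zinc finger proteins, had 13954, 12426 and 13996 normalized counts in the knockdown libraries, against 21920.4, 19940.1 and 20959 in the scrambled libraries (log2 change -0.64, SE 0.076, adjusted p = 1.77e-05). TRIM47 fell by 0.63 on the log2 scale and TRIM44, a TRIM protein that lacks the RING domain, by 0.54 (409 ± 26.1 normalized counts in knockdown cells, against 595 ± 32.3 in scrambled cells). TRIM8 had 1229, 1042 and 1381 in the knockdown libraries, against 1577, 1401 and 1563 in the scrambled libraries (-0.32, adjusted p = 0.0183); its adjusted p was 0.0732 without knockdown 2, 0.0555 without scrambled 1 and 0.0672 without scrambled 3, and 0.215 with equal totals.

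TRIM52 led the TRIM rises, with 177, 167 and 199 normalized counts in the knockdown libraries, against 85.9, 112 and 92.9 in the scrambled libraries (log2 change 0.90, SE 0.15, adjusted p = 3.26e-04). TRIM37, a ligase that limits centriole assembly, had 107, 125 and 107 in the knockdown libraries, against 60.0, 75.1 and 58.2 in the scrambled libraries (log2 change 0.81, SE 0.17, adjusted p = 0.00195). TRIM66, a chromatin-binding relative of TRIM28, averaged 251 ± 30.2 normalized counts in knockdown cells, against 143 ± 5.96 in scrambled cells (log2 change 0.80). TRIM52, TRIM37 and TRIM66 were each called in all 6 refits, whereas TRIM62 (0.60, adjusted p = 0.0272) was at 0.0986 without knockdown 3 and 0.107 without scrambled 2. TRIM71, an RNA-binding protein of embryonic and tumour cells, was not called, at 2052 against 2542 mean normalized counts in knockdown and scrambled cells (log2 change -0.31, adjusted p = 0.0688).

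**Figure D3:**
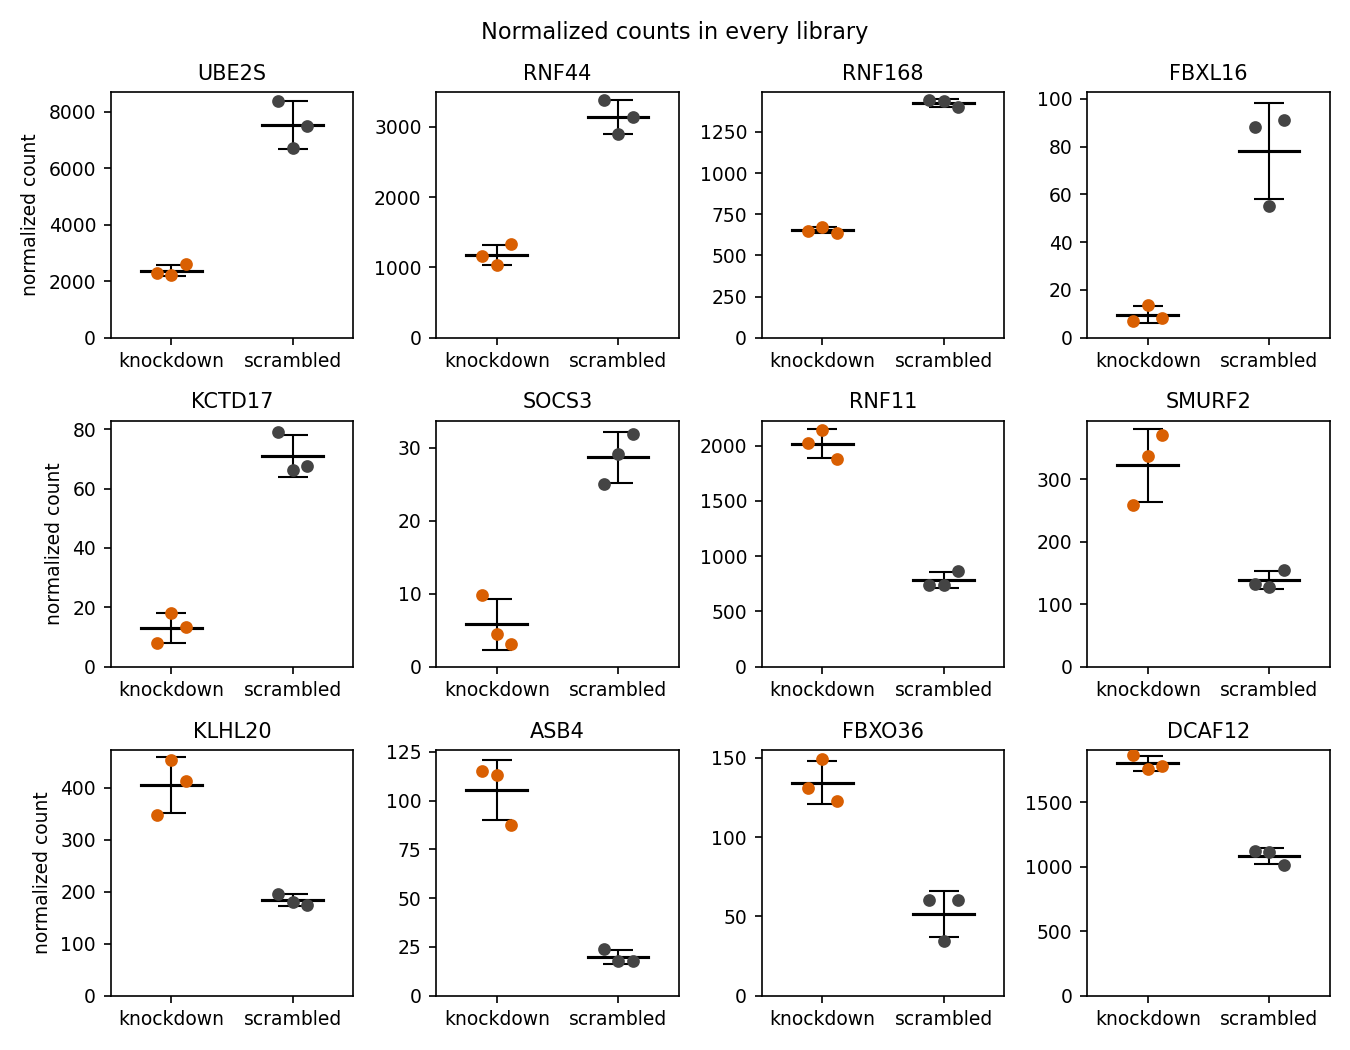
Normalized counts (vertical axes, from 0) of 12 member transcripts in each of 3 knockdown and 3 scrambled libraries (points), with mean and SD as bars. In every panel the groups do not overlap; UBE2S, RNF44, RNF168, FBXL16, KCTD17 and SOCS3 are lower and RNF11, SMURF2, KLHL20, ASB4, FBXO36 and DCAF12 higher in knockdown cells.

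None of the 4 tested cullin transcripts was called. CUL1, the scaffold of F-box ligases, had 1398, 1465 and 1427 normalized counts in the knockdown libraries, against 1369, 1575 and 1539 in the scrambled libraries (log2 change -0.061, SE 0.079). CUL5, the scaffold of SOCS box ligases, had 751, 899 and 786 in the knockdown libraries, against 739, 662 and 760.0 in the scrambled libraries (0.17, adjusted p = 0.153), and CUL9 changed by 0.018 (SE 0.094). CUL4B, with 21, 15 and 26 reads in the knockdown libraries, against 25, 10 and 17 in the scrambled libraries, was at 0.42 (SE 0.35), too few reads to show a small change. In each of the 4 the groups overlap; with equal totals 1 of the 4 was called higher. CUL4A had 5, 8 and 6 reads in the knockdown libraries, against 11, 5 and 12 in the scrambled libraries and was not tested, and CUL2, CUL3 and CUL7 were not analysed here.

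F-box receptors choose the targets of CUL1 ligases, and 8 of 34 tested transcripts rose and 4 fell (12 and 3 with equal totals). FBXL16 showed the largest fall of any member, with 6.85, 13.6 and 8.25 normalized counts in the knockdown libraries, against 88.4, 54.9 and 91.0 in the scrambled libraries (log2 change -2.92, SE 0.32, adjusted p = 9.33e-06). FBXO46 had 498, 496 and 515 in the knockdown libraries, against 1054, 856 and 959.8 in the scrambled libraries (log2 change -0.92, SE 0.094, adjusted p = 4.59e-06), and its knockdown libraries were nearly equal. FBXO33 fell by 0.58 on the log2 scale, and FBXO42 by 0.42 (adjusted p = 0.00647, and 0.0717 with equal totals).

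The largest F-box rise was FBXO36, with 131, 149 and 123 normalized counts in the knockdown libraries, against 60.0, 34.7 and 60.0 in the scrambled libraries (log2 change 1.40, SE 0.22, adjusted p = 1.87e-04). FBXW4 had 734, 740.3 and 807 in the knockdown libraries, against 464, 338 and 423 in the scrambled libraries (log2 change 0.90, SE 0.12, adjusted p = 3.32e-05). FBXO3 averaged 80.3 ± 15.6 normalized counts in knockdown cells, against 43.9 ± 5.69 in scrambled cells (log2 change 0.85), and FBXO8, which acts on a small GTPase of membrane traffic, 449 ± 20.3 normalized counts in knockdown cells, against 257 ± 19.9 in scrambled cells (0.80). FBXL22 (1.09) rests on 20, 20 and 23 reads in the knockdown libraries, against 15, 7 and 10 in the scrambled libraries, and its adjusted p of 0.0183 was 0.0507 without knockdown 2, 0.0580 without knockdown 3 and 0.0509 without scrambled 2.

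FBXW7, the receptor through which MYC and NOTCH1 are degraded, could hardly be measured. Its row had 15, 7 and 21 reads in the knockdown libraries, against 14, 12 and 17 in the scrambled libraries, and the groups overlap (log2 change 0.0095, SE 0.41). FBXO5, an inhibitor of the APC/C, was not called for its tested row NM_001142522, with 22, 30 and 49 reads in the knockdown libraries, against 29, 18 and 17 in the scrambled libraries (log2 change 0.72, adjusted p = 0.0905); its adjusted p was 0.0409 with equal totals and 0.0227 without knockdown 1. FBXW5 was at 4448 against 4525 in knockdown and scrambled cells (log2 change -0.024), with overlapping groups.

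BTB proteins, which serve CUL3 or are related to those that do, had 10 higher and 10 lower of 34 tested transcripts (14 and 8 with equal totals). KCTD17, which marks a regulator of primary cilia, had 7.83, 18.1 and 13.4 normalized counts in the knockdown libraries, against 79.2, 66.1 and 67.6 in the scrambled libraries (log2 change -2.42, SE 0.31, adjusted p = 3.18e-05). KLHL30 had 41.1, 36.2 and 45.4 in the knockdown libraries, against 93.4, 102 and 103 in the scrambled libraries (log2 change -1.27, SE 0.19, adjusted p = 1.06e-04), and KCTD3 had 1398, 1404 and 1289.6 in the knockdown libraries, against 2645, 2642 and 2544 in the scrambled libraries (log2 change -0.94, SE 0.072, adjusted p = 4.49e-07). All 3 falls are clear of the spread between libraries. KLHL14 fell by 0.82, KLHL29 by 0.80, KLHL11 by 0.70 and BTBD2, which binds topoisomerase, by 0.56 on the log2 scale. KCTD19 had 4, 3 and 5 reads in the knockdown libraries, against 21, 15 and 18 in the scrambled libraries (log2 change -1.82) and was no longer tested when any one scrambled library was left out.

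KLHL20, the CUL3 receptor for PML and the death-associated kinase DAPK, led the BTB rises with 347, 453 and 414 normalized counts in the knockdown libraries, against 196, 180.4 and 174 in the scrambled libraries (log2 change 1.13, SE 0.12, adjusted p = 8.75e-06). KCTD11, an antagonist of Hedgehog signalling, had 462, 461 and 467 in the knockdown libraries, against 273, 276 and 272 in the scrambled libraries (log2 change 0.76, SE 0.094, adjusted p = 2.60e-05). Its replicates lay very close together in both groups. KCTD18 averaged 265 ± 30.7 normalized counts in knockdown cells, against 152 ± 8.59 in scrambled cells (log2 change 0.79). KLHL9 and KLHL21, which direct Aurora B during mitosis, rose by 0.69 and 0.44, and KLHL24, which controls keratin turnover, by 0.43. KLHL34 (0.72) had 44, 31 and 44 reads in the knockdown libraries, against 36, 22 and 21 in the scrambled libraries, and its adjusted p of 0.0352 was 0.0899 without knockdown 1, 0.105 without knockdown 3, 0.0628 without scrambled 2 and 0.122 without scrambled 3.

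DCAF receptors connect targets to CUL4. DCAF10 had 368, 313 and 366 normalized counts in the knockdown libraries, against 719.5, 409 and 631 in the scrambled libraries (log2 change -0.71, SE 0.17, adjusted p = 0.00372), with scrambled 2 nearest to the knockdown libraries. DCAF4L2 had 453, 488 and 469 in the knockdown libraries, against 631, 774 and 687 in the scrambled libraries (log2 change -0.56, SE 0.10, adjusted p = 3.81e-04), and DCAF13, which also acts in ribosome assembly in the nucleolus, had 528, 563 and 509 in the knockdown libraries, against 642, 822 and 771 in the scrambled libraries (log2 change -0.48, SE 0.10, adjusted p = 0.00205). DCAF7, a scaffold for the kinase DYRK1A, averaged 1575 ± 43.8 normalized counts in knockdown cells, against 2168 ± 107 in scrambled cells (log2 change -0.46). DCAF16 and DCAF15, receptors used by degrader compounds, fell by 0.34 and 0.32, but with equal totals their adjusted p was 0.0948 and 0.160.

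DCAF12, which recognises proteins by an acidic end, went the other way. It had 1862, 1754 and 1785 normalized counts in the knockdown libraries, against 1121, 1114 and 1010.5 in the scrambled libraries (log2 change 0.74, SE 0.076, adjusted p = 5.64e-06), and no library of one group came near the other. DCAF12L2, its scarce relative, had 10, 10 and 6 reads in the knockdown libraries, against 34, 12 and 11 in the scrambled libraries and was not called. DDB1, the adaptor that holds DCAF proteins to CUL4, was not called either, at 20052 ± 600.0 normalized counts in knockdown cells, against 19104 ± 864 in scrambled cells (log2 change 0.070).

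SOCS box receptors, with 2 higher and 2 lower of 9 tested transcripts (3 and 1 with equal totals), held both the largest rise and one of the largest falls. ASB4, an ankyrin repeat receptor, had 115, 113 and 87.7 normalized counts in the knockdown libraries, against 24.2, 17.9 and 17.8 in the scrambled libraries (log2 change 2.35, SE 0.23, adjusted p = 3.24e-06), and its lowest knockdown library was over 3 times its highest scrambled one. SOCS3, which is induced by STAT signalling and shuts off cytokine receptors, had 10, 4 and 3 reads in the knockdown libraries, against 30, 26 and 34 in the scrambled libraries (log2 change -2.24, SE 0.42, adjusted p = 7.30e-04). The knockdown libraries were all below the scrambled ones, but these are few reads. The SOCS3 row passed the minimum mean of 10 only through the scrambled libraries. SOCS1, with the same kind of role, had 250.4, 251 and 246 normalized counts in the knockdown libraries, against 281, 298 and 296 in the scrambled libraries and was not called, although its groups do not overlap (log2 change -0.23, adjusted p = 0.0830). SOCS2 was not analysed here.

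ASB8 fell by 0.40 on the log2 scale (308 ± 17.1 normalized counts in knockdown cells, against 407 ± 32.1 in scrambled cells; adjusted p = 0.00639, and 0.0930 with equal totals). SOCS7, an adaptor of the insulin pathway, was called higher at an adjusted p of 0.0498, but the rise rests on knockdown 3: it had 216, 163 and 426 normalized counts in the knockdown libraries, against 163, 147 and 159 in the scrambled libraries, and the groups overlap. The adjusted p of SOCS7 was 0.203 without knockdown 3, 0.0731 without scrambled 1, 0.105 without scrambled 2 and 0.104 without scrambled 3.

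Of 24 rows with a non-coding identifier, 17 were tested, 4 rose and 2 fell (7 and 2 with equal totals). SMURF2P1-LRRC37BP1, a transcript whose symbol joins the names of different pseudogenes, moved against SMURF2. It had 434, 434 and 431 normalized counts in the knockdown libraries, against 1057, 1176 and 1056 in the scrambled libraries (log2 change -1.34, SE 0.084, adjusted p = 9.51e-08), while SMURF2 rose by 1.20. Of the 50-base stretches in the annotated SMURF2P1-LRRC37BP1 transcripts, 0.081% are also in SMURF2, so few reads could be shared. At this length the row scarcely resembles SMURF2, so it is not a close copy set against its gene. The gene behind the LRRC37BP1 part was not examined. RNF5P1 fell with RNF5 (-0.77 and -0.51), and 41.8% of its stretches are found in RNF5, so the 2 rows cannot be read as independent; its adjusted p of 0.0155 was 0.0811 without scrambled 1. UBE2MP1 was not called (0.12) and shares 31.1% of its stretches with UBE2M, which fell by 0.33.

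The HERC2 pseudogenes share 28.2% (HERC2P2), 18.8% (HERC2P3) and 31.3% (HERC2P9) of their stretches with HERC2. Their log2 changes were 0.37, 0.26 and 0.49, against 0.026 for HERC2 itself. HERC2P9 alone was called, and its adjusted p of 0.0197 was 0.0572 without knockdown 2, 0.0594 without knockdown 3, 0.0607 without scrambled 1 and 0.0528 without scrambled 3. TRIM16L, a truncated relative that shares 39.4% of its stretches with TRIM16, was called higher (0.44) while TRIM16 was not (0.038); its adjusted p of 0.0210 was 0.0617 without knockdown 1 and 0.0830 without scrambled 1. UBE2E4P, a pseudogene of the UBE2E family, rose by 1.004 with UBE2E3, and its adjusted p of 0.0203 was 0.0859 without knockdown 3 and 0.0741 without scrambled 2; no transcript of it was found in the annotation, so the shared sequence was not measured.

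RNF139-AS1 rose without RNF139. The antisense transcript had 35, 29 and 33 reads in the knockdown libraries, against 6, 5 and 8 in the scrambled libraries (log2 change 2.32, SE 0.34, adjusted p = 1.05e-04), whereas RNF139, a ligase of the endoplasmic reticulum, had 449, 495 and 506 normalized counts in the knockdown libraries, against 392, 429 and 451 in the scrambled libraries and was not called (log2 change 0.19). The annotated genes do not overlap. FBXL19-AS1 had 87.1, 99.5 and 135 normalized counts in the knockdown libraries, against 61.7, 56.0 and 41.3 in the scrambled libraries (log2 change 0.998, SE 0.22, adjusted p = 0.00212); its gene overlaps FBXL19 by 419 bases, and FBXL19 had too few reads to be tested. RNF144A-AS1, whose gene overlaps RNF144A by 1271 bases, was not called (log2 change 0.25), while RNF144A fell by 0.80. The strand setting of the counting is not stated, so reads of a gene and of an antisense partner that overlaps it cannot be told apart.

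**Figure D4:**
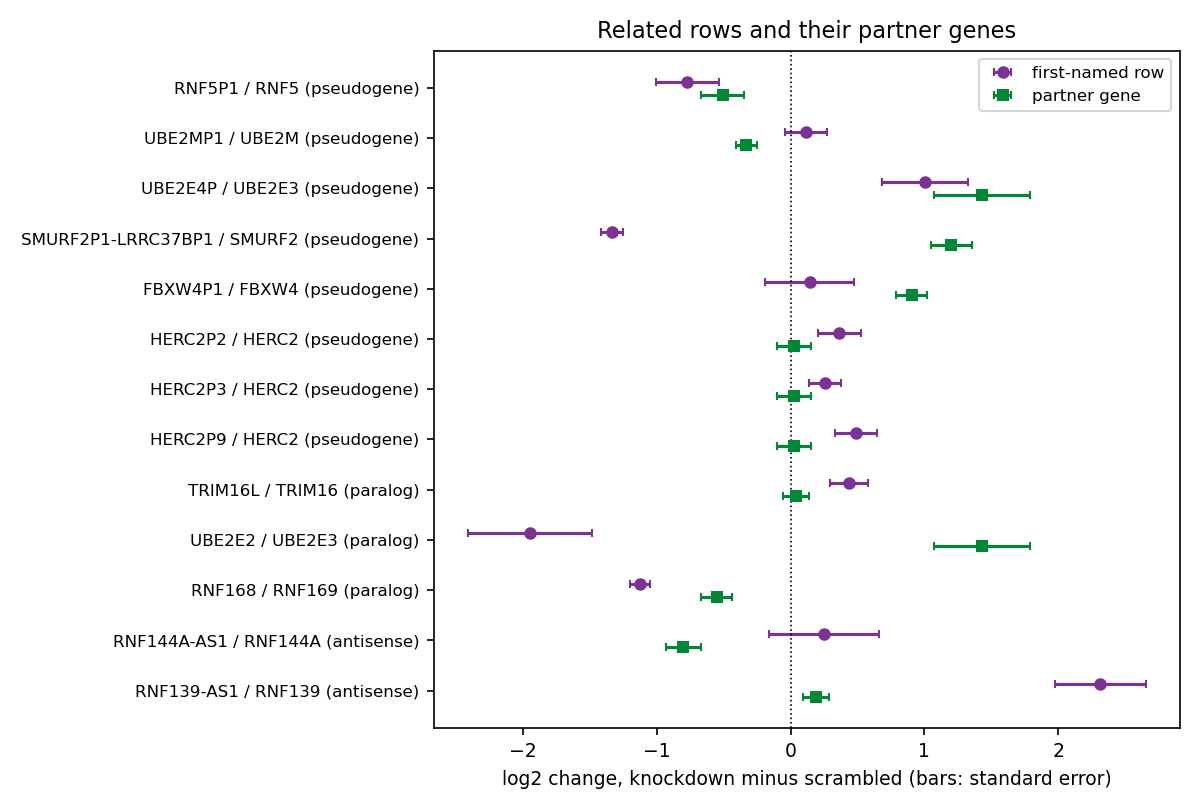
Log2 change (knockdown minus scrambled, with SE) of pseudogene, paralog and antisense rows (circles) and of the gene each is paired with (squares). SMURF2P1-LRRC37BP1 against SMURF2 and UBE2E2 against UBE2E3 lie on opposite sides of 0, while RNF5P1 and RNF5 lie on the same side. SMURF2P1-LRRC37BP1 shares only 0.081% of its 50-base stretches with SMURF2. UBE2MP1 and RNF144A-AS1, neither of them called, also lie across 0 from UBE2M and RNF144A.

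A gene is represented here by the transcripts that have a row, which limits what a low value means. Members from genes with 1 RefSeq transcript (130 rows, 121 tested) had a median mean normalized count of 283.9, and members from genes with 2 or more (113 rows, 85 tested) one of 62.7. The shares called were 52.9% and 50.6%. Of 8 symbols with more than 1 row, UBE2E3, RNF128 and RNF31 had both rows higher and RNF213 had 1 of 2 rows higher. FBXO5, SIAH1, TRIM9 and UBE2D3 had 1 row each that could be tested, and none of these was called. The 37 untested members had mean normalized counts of 1.96 to 9.96, and tested members had a median of 261 against 191 for all transcripts tested.

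The membrane-bound MARCH ligases matched no row, because their symbols had become dates in the deposited table. Through the RefSeq identifiers, MARCHF9 had 329, 361 and 377 normalized counts in the knockdown libraries, against 207, 238 and 267 in the scrambled libraries (log2 change 0.59, SE 0.12, adjusted p = 0.00144) and MARCHF5, a ligase of the mitochondrial outer membrane, 875, 886 and 809 in the knockdown libraries, against 697, 633 and 743 in the scrambled libraries (log2 change 0.31, SE 0.089, adjusted p = 0.0109). Both were higher in knockdown cells. MARCHF8 (0.65, adjusted p = 0.0540) and MARCHF3 (0.052) were not called. These rows are not counted among the members.

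Other genes of the pathway gave a like share of calls with more falls. Of 147 listed genes outside the families, 76 had a row and 69 were tested; 12 rose and 24 fell, 52.2% in all, with a median log2 change of -0.11 (20 and 20 with equal totals). UBA7, the E1 enzyme that serves ISG15, rose by 0.59 on the log2 scale. UBA2, a subunit of the SUMO E1, fell (1112 ± 55.7 normalized counts in knockdown cells, against 2383 ± 146 in scrambled cells; log2 change -1.10, SE 0.078, adjusted p = 2.48e-07). CAND1, which exchanges receptors on cullins, averaged 2119.9 ± 221 normalized counts in knockdown cells, against 3409.6 ± 111 in scrambled cells (log2 change -0.69, SE 0.083, adjusted p = 2.05e-05), and DCUN1D2 and DCUN1D3, which promote attachment of NEDD8 to cullins, changed by -1.44 and -0.90. NEDD8 (-0.14) and the RING subunit RBX1 (-0.17) were not called.

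Among ligases outside the families, CCNF, the F-box protein cyclin F of dividing cells, fell by 1.36 on the log2 scale. MIB1, which activates Notch ligands, fell by 1.11 and the HECT ligase AREL1 by 0.97. CBL, which marks activated receptor kinases, fell by 0.94 and MYLIP, which marks the LDL receptor, by 0.93. HUWE1, a HECT ligase, fell by 0.29, a call lost with equal totals (adjusted p = 0.192). IVNS1ABP, a KLHL-type protein, rose by 0.70, ZNRF2 by 0.65 and MUL1 by 0.46, each called in all 6 refits. The HECT ligases WWP2 and WWP1 rose by 0.75 and 0.26. The adjusted p of WWP2 was 0.0689 without scrambled 1. That of WWP1 was 0.0619 without knockdown 1, 0.0843 without knockdown 2, 0.0565 without scrambled 1 and 0.0697 without scrambled 2. In the APC/C, 1 subunit or activator rose (CDC23, 0.35) and 3 fell (CDC20, ANAPC1 and CDC26, at -1.19, -0.88 and -0.43) of 9 tested rows (1 and 2 with equal totals). The groups overlap for CDC26, and its adjusted p of 0.0325 was 0.0810 without knockdown 3, 0.0959 without scrambled 3, 0.133 without knockdown 1 and in between without scrambled 2, and 0.193 with equal totals.

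Of 17 listed members known to be induced by interferon, 11 had a row, and 3 of 12 tested rows rose and 1 fell (4 and 1 with equal totals). The share that rose lies near the 24.5% of all transcripts called higher. The rises were TRIM21, an intracellular antibody receptor (0.42, adjusted p = 0.0342), TRIM25, which activates the RNA sensor RIG-I (0.23, adjusted p = 0.0475), and the scarce RNF213 row, and the fall was SOCS3. The rise of TRIM21 was at an adjusted p of 0.105 without knockdown 1, 0.0725 without knockdown 3, 0.121 without scrambled 1 and 0.0511 without scrambled 3, and that of TRIM25 was at 0.157 without knockdown 1, 0.0825 without knockdown 2, 0.0563 without knockdown 3, 0.151 without scrambled 2 and 0.121 without scrambled 3. UBE2L6, the E2 of ISG15, was not called (0.45, adjusted p = 0.0656, and 0.0159 with equal totals).

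Of 6 members linked to proliferation, 5 had a row: UBE2S and RNF26 fell, TRIM59 rose by 0.49, and FBXO5 and FBXL14 (0.34, adjusted p = 0.114) were not called. With equal totals both of these passed, at an adjusted p of 0.0409 and 0.0195 in the order named, which made 3 higher and 2 lower. Hepatocyte markers were present in both groups, with 6 of 9 in the table and a summed normalized count of 336883 to 379933 in knockdown libraries, against 392016 to 453530 in scrambled libraries. Of other cell types, 1 of 4 immune markers (LYZ), 3 of 3 endothelial markers and 3 of 4 fibroblast and stellate markers had a row. In hepatocyte markers 0 of 5 tested rows rose and 3 fell (2 and 2 of the rows tested with equal totals). Their sum was mostly AFP, which was not called (log2 change -0.096), and neither was TTR (0.19). The falls were APOA2 (-0.97), ALB (-0.42) and APOB (-0.20), and that of APOB was lost with equal totals (adjusted p = 0.796). The immune marker LYZ averaged 6961 ± 475 normalized counts in knockdown cells, against 5997 ± 314 in scrambled cells (log2 change 0.21, adjusted p = 0.0298), and its adjusted p was 0.0714 without knockdown 1, 0.105 without knockdown 2, 0.110 without scrambled 1 and 0.0673 without scrambled 3. The endothelial markers were split: VWF rose (log2 change 1.08), while PECAM1 (-0.59) and CDH5 (-1.14) fell, and their sum was 114 to 138 in knockdown libraries against 159 to 173 in scrambled libraries. Of the fibroblast and stellate markers, COL3A1 (92.1 ± 17.3 normalized counts in knockdown cells, against 31.3 ± 7.73 in scrambled cells; log2 change 1.54) and LUM (102 ± 12.5 normalized counts in knockdown cells, against 23.7 ± 8.71 in scrambled cells; 2.11) rose, while COL1A1 (365 ± 45.9 normalized counts in knockdown cells, against 741 ± 28.1 in scrambled cells; -1.03) fell. Their sum, carried by COL1A1, was 488 to 602 in knockdown libraries against 753 to 823 in scrambled libraries. PTPRC, CD3E, CD68 and ACTA2 were not analysed here. The part of these markers in the members' changes was not tested.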

How the data were processed

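RNA-seq libraries of total RNA from Huh7 cells, 3 with a hairpin against ABL1 and 3 with a scrambled hairpin, were grouped by their titles. The deposited table holds 1 signal value per transcript and library, computed by the authors. Tools listed, per the submitters' processing notes, are HISAT2 2.0.4 and HTSeq 0.6.1, with build hg38; their roles and order are not stated. Annotation, strand setting, row filter and normalization method are likewise not given in the sources used here. Each deposited value is a scaled square root: its square is a library-specific step multiplied by a whole number plus 0.375. Whole reads were recovered within 0.05 for 100% of rows in each library.

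Normalized counts are recovered reads multiplied by each library's relative step, so the authors' scaling is kept. Rows averaging at least 10 normalized counts were tested with limma 3.58.1 (R 4.3.3; lmFit, eBayes with a trend) on log2(normalized count + 1), two-sided, Benjamini-Hochberg adjusted over all 8600 tested, threshold 0.05. On this scale the change of transcripts with few reads is understated. The minimum of 10 is a mean over both groups. A row scarce in 1 group could thus pass through the other, as did RNF139-AS1, SOCS3, FBXL16, KCTD19 and RNF144B. Because the deposited values are square roots and not counts, no count model was the main test; voom weights on the recovered reads were an alternative. The fit was also run on simulated counts in which few rows changed, at a single dispersion and with no shift in scaling. That setting differs from these data, in which 51.9% of tested transcripts were called, so it does not show how the fit performs here. Of the member rows, 243 of 245 matched the RefSeq gene table. Gene overlaps were taken from that table, and shared 50-base stretches from GENCODE 29. Role groups followed symbol families. Members, groups and lists were chosen with earlier results of these data known, so no test over a list was made. Named members are, per role group, the 4 largest rises and 4 largest falls among calls without overlap and with a mean of at least 30, plus a list named whatever its values; the other members named were chosen after their values were seen. A few transcripts are counted but not reported here. Alternatives changed the pseudocount, filter, scaling, variance model, row unit, a replicate block and each library left out.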

Additional observations from a re-analysis of the deposited data

How the results depend on the processing

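The counts of members called stayed within 1.5 times the reported 57 higher and 51 lower under every alternative run. Leaving out each library in turn gave 41 to 53 higher and 46 to 52 lower, with a median log2 change of 0.0166 to 0.0733. The median of members, 0.042 as reported, moved to 0.22 with equal totals and to 0.097 with quantile normalization, where the median of all transcripts was 0.18 and 0.035. Voom precision weights gave 55 higher and 51 lower, and a fit without a trend gave 46 and 50. Of 1169 values of named transcripts under alternatives, 1100 kept their direction and their side of the threshold, 45 lost and 10 gained a call, and 14 changed sign. The sign changes were CUL1 at 0.11 (equal totals) and 0.047 (quantile), UBR2 at 0.15 (equal totals) and 0.076 (quantile) and FBXW7 at -0.11 (quantile). With a library left out, UBR2 ran from -0.12 to 0.034, FBXW7 from -0.30 to 0.37, CUL9 from -0.039 to 0.063 and UBE2D4 from -0.40 to 0.0091. None of these had been called. The cause was not tested. Requiring a mean of at least 30 gave no value for 4 of the 69 named transcripts.

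The labels give both groups the replicate numbers 1 to 3. Deviations of same-numbered libraries correlated at 0.0471, 0.0765 and 0.0768, each below 0.1, so the numbers were not taken to pair the libraries. Knockdown 2 correlated best with its own number, but knockdown 1 did so with scrambled 2 (0.0827) and knockdown 3 with scrambled 1 (0.0886). With the replicate block, 62 members were higher and 56 lower, and the median was 0.042. Transcripts with few reads, such as FBXW7, CUL4B and SOCS3, allow only large changes to be seen.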
